A study of Mus musculus with 108 samples.

Results

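The 10 genes described here are noncoding hosts of small nucleolar RNAs: Gas5, Snhg1, Snhg3, Snhg5, Snhg6, Snhg8, Snhg11, Snhg12, Snhg14 and Snhg20. They were taken by symbol from the 55573 genes of the count files, and all 10 were found. Their RNA was measured in single mouse oocytes, either lacking Exosc10 through a conditional knockout restricted to the oocyte (cKO) or from control females. Oocytes were taken at the germinal vesicle stage (GV), after 3 hours in M2 medium (GV3h) or as eggs dissected from the oviduct at metaphase of the second meiotic division (MII). Each oocyte gave 1 of the libraries used here, either of RNA caught on oligo-dT beads (polyA) or of RNA primed with random hexamers and depleted of ribosomal RNA (RiboMinus). For each RiboMinus oocyte the series also holds an rRNA sample, which was not used. The polyA libraries held 15 cKO oocytes of 2 females and 7 control oocytes of 2 females at GV. They held 11 cKO oocytes of 3 females and 8 control oocytes of 3 females at GV3h, and 15 cKO oocytes of 3 females and 8 control oocytes of 3 females at MII. For RiboMinus there were 7 oocytes of 2 cKO females and 8 oocytes of 2 control females at GV. MII eggs were fewer, 4 from 2 cKO females and 3 from 1 control female, so there genotype and female cannot be told apart. The Cre driver, the alleles of the controls and the age of the females are not given in the sources used here.

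A snoRNA host gene is transcribed by RNA polymerase II, and its introns carry small nucleolar RNAs that are cut out and trimmed after splicing. C/D box snoRNAs guide methylation of ribosomal RNA, H/ACA box snoRNAs guide its pseudouridylation, and scaRNAs act on spliceosomal RNAs in Cajal bodies. The spliced exons of these genes encode no conserved protein. For Gas5 and several others they start with a pyrimidine tract, as ribosomal protein mRNAs do, and are removed by nonsense-mediated decay when ribosomes translate them. EXOSC10 is a 3′ to 5′ ribonuclease of the nuclear RNA exosome, which trims precursors of ribosomal RNA and snoRNAs and degrades nuclear transcripts.

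The sequences of 6 hosted RNAs of Gas5, Snhg1 and Snhg20 are shown, picked by their RiboMinus reads. In GV controls these ran from 100 reads for Gm25855 to 1261 for Gm22357. Hosted RNAs of Snhg12 are not shown, though reads shared with snoRNA genes made up 80.74% of its GV control reads. The 6 sequences come from the GENCODE M21 transcripts of GRCm38 (mm10) and read 5′ to 3′ on the strand of the host. Capitals mark the letters TGATGA, the C box form searched, and CTGA, the D box form, wherever they occurred. Such a match is a description of the letters only. Gm22357, Snord80 and Snord47 lie in Gas5 at chr1:161036057-161036139, chr1:161037601-161037681 and chr1:161038082-161038158. Gm25855 and Snord22 lie in Snhg1 at chr19:8723993-8724064 and chr19:8725866-8725991. Gm26083 lies in Snhg20 at chr11:117077243-117077435 and holds neither set of letters.
Gm22357: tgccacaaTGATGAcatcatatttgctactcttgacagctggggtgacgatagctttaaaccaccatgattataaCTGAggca
Snord80: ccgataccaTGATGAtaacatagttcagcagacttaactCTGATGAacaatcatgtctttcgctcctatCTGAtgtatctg
Snord47: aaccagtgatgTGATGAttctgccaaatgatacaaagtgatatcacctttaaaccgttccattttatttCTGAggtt
Gm25855: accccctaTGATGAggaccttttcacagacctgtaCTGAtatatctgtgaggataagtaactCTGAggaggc
Snord22: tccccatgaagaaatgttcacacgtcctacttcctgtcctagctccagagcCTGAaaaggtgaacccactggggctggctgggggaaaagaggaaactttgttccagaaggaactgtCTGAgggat
Gm26083: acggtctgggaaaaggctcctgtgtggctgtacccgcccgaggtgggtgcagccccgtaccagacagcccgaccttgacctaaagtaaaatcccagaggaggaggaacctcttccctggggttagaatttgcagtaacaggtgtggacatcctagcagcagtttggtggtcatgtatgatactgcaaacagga

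The transcription starts of the hosts were compared for a pyrimidine tract. RefSeq's GRCm38.p6 table held a start for 9 of the 10 hosts. Each window spans 20 bases on either side of the start, and capitals mark the longest run of C or T found within 10 bases of it, on the strand of the gene. They are shown for Gas5, Snhg1, Snhg3 and Snhg20, each called between genotypes at 2 or more polyA stages, and for Snhg12, which had the longest run within the 10 bases searched on either side.
Gas5 (chr1:161035146-161035185, plus strand): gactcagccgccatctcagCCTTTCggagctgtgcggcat
Snhg1 (chr19:8723467-8723506, plus strand): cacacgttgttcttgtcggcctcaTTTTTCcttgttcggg
Snhg3 (chr4:132353667-132353706, minus strand): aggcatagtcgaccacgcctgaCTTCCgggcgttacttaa
Snhg20 (chr11:117076763-117076802, plus strand): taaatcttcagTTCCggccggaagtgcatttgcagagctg
Snhg12 (chr4:132308658-132308697, plus strand): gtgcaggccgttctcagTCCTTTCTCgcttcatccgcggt
The run was 6 bases in Gas5 and Snhg1, a length that 20.2% of the 32851 promoters in the table reached. It was 5 bases in Snhg3 (34.4% of promoters), 4 in Snhg20 (54.4%) and 9 in Snhg12 (4.51%). The runs were cut at the end of the searched bases: that of Snhg1 goes on past it in the window shown, and in Snhg5 another run starts near the end and goes on past it. Among the windows not shown, Snhg8 had a run of 7 bases (12.2%), Snhg5 and Snhg11 one of 3 (77.4%) and Snhg14 one of 2 (95.6%). The table holds another start of Gas5, whose window (chr1:161034581-161034620) had a run of 3 bases (77.4%). The median over all promoters was 4 bases. Both sides of the start were searched, so a run need not lie at the first base of the RNA. That of Snhg20 lies upstream of the start, and those of Snhg1 and Snhg3 begin downstream of it. The lengths alone thus do not show which RNAs begin with a pyrimidine tract.

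Depth was 4638718 to 8735914 gene counts per polyA library and 12319658 to 62675760 per RiboMinus library. Exosc10 itself checked the labels: the highest cKO oocyte of any polyA group had 4.43 CPM (counts per 1e6 reads, scaled by edgeR's TMM factors), and the lowest control oocyte had 43 CPM. In RiboMinus libraries these values were 8.28 and 84.9 CPM. All 10 oocyte markers were detected, with a summed level of 16495 to 30126 CPM per polyA library and 6785 to 13286 CPM per RiboMinus library. The 10 cumulus and granulosa markers summed to 16.5 to 139 CPM and 10.1 to 78.5 CPM. Oocytes of 1 female share their mother, so the p-values below measure the spread between oocytes. Fits on counts summed per female are given beside those of the hosts, while hosted RNAs and listed genes have p-values from oocytes only. CPM is a share of a library, so fewer host RNA molecules per oocyte and more of other RNAs cannot be told apart.

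Without EXOSC10, the polyA level of several hosts was higher at every stage when all females entered the fit, and none was called lower. The GV calls changed when 1 female was left out, as given below. At GV, 5 of the 8 hosts that passed the filter on low counts were called (edgeR quasi-likelihood test, adjusted p under 0.05), and all 5 were higher in cKO oocytes: Gas5, Snhg1, Snhg3, Snhg14 and Snhg20. Over all genes tested, 22% were called higher and 18.5% lower. At GV3h, 5 of 7 hosts were higher (Gas5, Snhg1, Snhg3, Snhg5 and Snhg20), against 29.4% of all genes higher and 26.1% lower. At MII, 4 of 7 were higher (Gas5, Snhg1, Snhg6 and Snhg8), against 19% higher and 18.6% lower. The median log2 fold change of the hosts tested was 0.80, 1.41 and 1.23 at GV, GV3h and MII, and over all genes it was 0.06, 0.03 and 0.04. A host such as Snhg20, with 5 reads in all GV controls, passed the filter through the cKO group, so these counts and medians only describe the hosts.

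**Figure D1:**
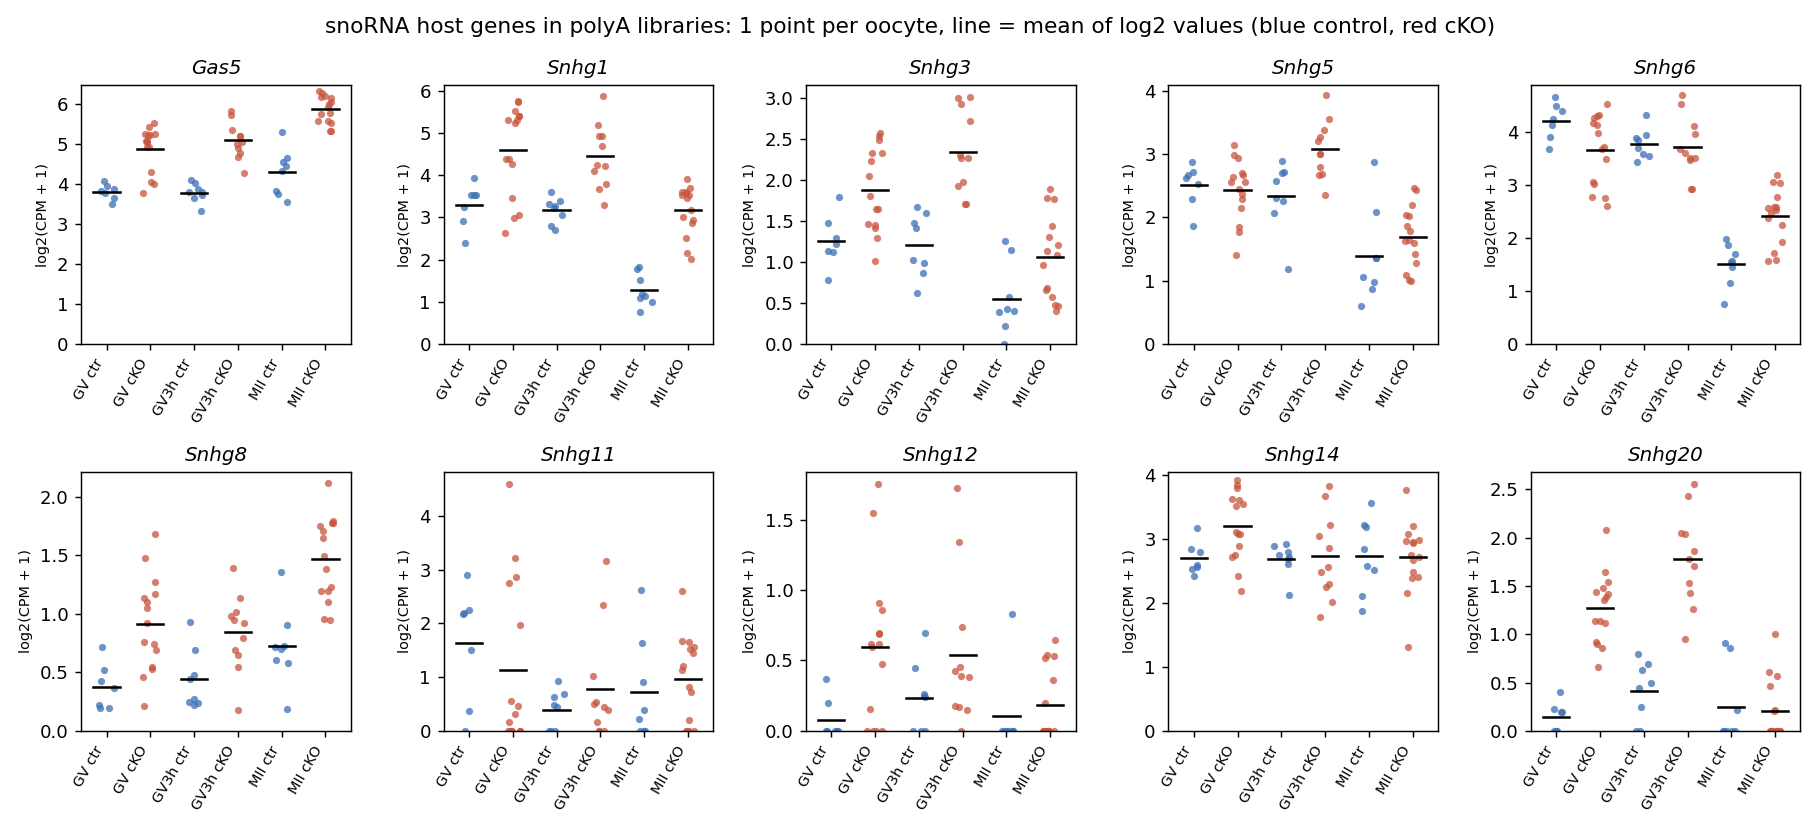
Level of the 10 hosts in the polyA libraries, 1 panel per host, as log2(CPM + 1) on the vertical axis. Each point is 1 oocyte of the control or cKO group at GV, GV3h or MII, and each line is the mean of the log2 values; the Gas5 points of cKO oocytes lie above all controls at GV3h and MII, and those of Snhg20 at GV and GV3h.

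Gas5 (ENSMUSG00000053332, chr1:161034422-161038539) hosts C/D box snoRNAs, 10 annotated small RNA genes lying inside it, and its spliced RNA is named for its accumulation in growth-arrested cells. Its polyA level in control oocytes ran from 10.4 through a median of 13.3 to 16 CPM at GV, and in cKO oocytes from 12.7 through 32.6 to 45 CPM. At GV3h the control values were 9.03, 12.9 and 16.3 CPM, in the same order, and the cKO values 18.3, 32.5 and 56.3 CPM. At MII they were 10.7, 20.2 and 38.6 CPM in controls and 39.1, 59.6 and 79.6 CPM in cKO oocytes. The genotypes overlapped at GV only, where 3 cKO oocytes lay in the control range. The fold change was 2.26 at GV (log2 1.17 ± 0.23 SE, edgeR adjusted p = 0.000262), 2.65 at GV3h (1.41 ± 0.19, 3.14e-06) and 2.83 at MII (1.50 ± 0.20, 1.46e-06). With counts summed per female, Gas5 kept its call at GV3h (log2 1.41, edgeR adjusted p = 0.000509) and MII (1.44, 0.00337) but not at GV (0.98, 0.266).

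Snhg1 (ENSMUSG00000108414, chr19:8723475-8726443) hosts 8 annotated C/D box genes. Its control levels ran from 4.27 through 10.5 to 14.3 CPM at GV, from 5.52 through 8.46 to 11.1 CPM at GV3h and from 0.692 through 1.26 to 2.52 CPM at MII. The cKO levels ran from 5.24 through 36.5 to 53.4 CPM, from 8.85 through 17.9 to 58 CPM and from 3.02 through 9.97 to 14 CPM. Only at MII did the genotypes not overlap. The fold change was 3.07 at GV (log2 1.62 ± 0.43, edgeR adjusted p = 0.00405), 2.91 at GV3h (1.54 ± 0.30, 0.000189) and 5.43 at MII (2.44 ± 0.33, 1.64e-06). With female sums it was called at GV3h (edgeR adjusted p = 0.00181) and MII (0.00798), and not at GV (0.341).

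At GV the cKO females differed, and the value of Snhg1 was that of 1 of them. Of the 15 cKO oocytes, 10 came from female V888, with a mean of 38.7 CPM, and 5 from female V857, with a mean of 9.55 CPM. The control females averaged 7.81 and 10.5 CPM, so V857 lay between them. Without V888 the log2 difference of Snhg1 was 0.00 (edgeR adjusted p = 0.995), and that of Gas5 was 0.45 (0.0847). The Snhg1 call was also lost without the control female V856 (1.43, edgeR adjusted p = 0.055) or V889 (1.85, 0.0632). Without V888, 3 of 7 hosts were called at GV, and Snhg14 alone was higher, in a fit that called 6967 of 13855 genes, 3571 of them higher and 3396 lower. Snhg6 fell by 1.56 (edgeR adjusted p = 2.33e-05) and Snhg11 by 4.06 (0.0029) in that fit, and the median of the hosts was 0.00. None of the 5 hosts called at GV was called in all 4 fits that left out 1 female. Snhg20 did not pass the filter in 2 of them. Gas5 averaged 36.1 CPM in V888 and 18.4 CPM in V857, both above the control females at 13.1 and 13.3 CPM. At GV3h and MII every cKO female was above every control female in both genes. Female V897 gave 11 of the 15 cKO oocytes at MII, and the Gas5 and Snhg1 calls there held without it, as without each other female.

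**Figure D2:**
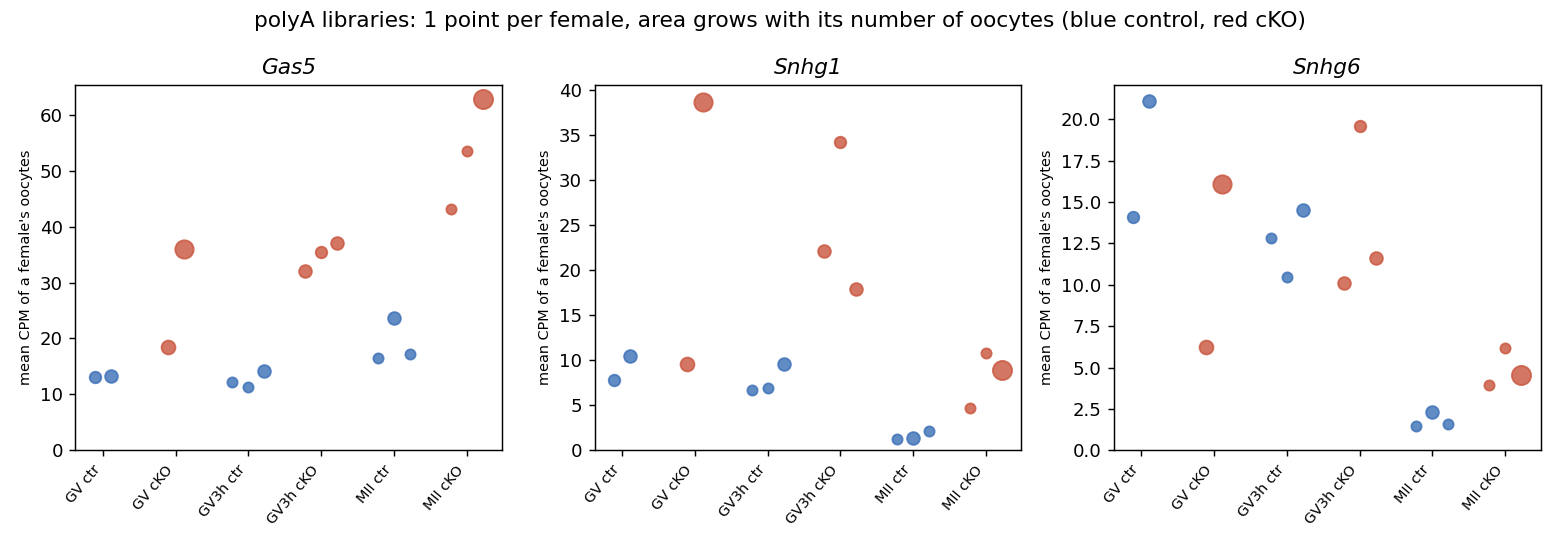
Mean polyA level per female in CPM on the vertical axis for Gas5, Snhg1 and Snhg6, by stage and genotype; each point is 1 female. At GV the 2 cKO females lie apart, V888 at 36.1, 38.7 and 16.1 CPM and V857 at 18.4, 9.55 and 6.25 CPM.

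Snhg5 (ENSMUSG00000097195) and Snhg6 (ENSMUSG00000098234), hosts of Snord50 copies and of Snord87, differed at 1 polyA stage each. Snhg5 at GV3h ran from 1.28 through 4.44 to 6.38 CPM in controls and from 4.13 through 7.03 to 14.2 CPM in cKO oocytes, with a fold change of 1.79 (log2 0.84 ± 0.27, edgeR adjusted p = 0.0128). The ranges overlapped, and without female V993 the difference was 0.65 (edgeR adjusted p = 0.0847). Snhg6 at MII ran from 0.7 through 1.94 to 2.95 CPM in controls and from 1.97 through 4.77 to 8.22 CPM in cKO oocytes, with a fold change of 2.34 (log2 1.23 ± 0.33, edgeR adjusted p = 0.00445). Its ranges overlapped as well, and without female V897 the log2 difference was 1.37 (edgeR adjusted p = 0.0613). At GV, Snhg6 had medians of 18.1 CPM in controls and 12.2 CPM in cKO oocytes and was not called (log2 −0.51, edgeR adjusted p = 0.128). An exon of Snhg6 overlaps 127 bases of Mcmdc2 on the opposite strand, and the counts do not tell strands apart.

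Snhg14 (ENSMUSG00000100826) is the long host of the Snord115 and Snord116 clusters at the imprinted Ube3a locus, chr7:59307924-59975759. Its polyA values at GV ran from 4.33 through 5 to 7.94 CPM in controls and from 3.55 through 7.59 to 14.1 CPM in cKO oocytes. The ranges overlapped widely, and the fold change was 1.55 (log2 0.63 ± 0.25, edgeR adjusted p = 0.0476). The call was lost without female V856 (0.76, edgeR adjusted p = 0.0787), V857 (0.41, 0.196) or V889 (0.41, 0.462). At GV3h and MII its log2 differences were 0.17 and −0.07 and were not called. The 208 snoRNA genes annotated inside Snhg14 had 7 reads in all RiboMinus libraries and 0 in all polyA libraries, while Snhg14 itself had 255 reads in the polyA GV controls. Most of the 208 are clustered copies, and reads that match several copies may not have been counted, which was not tested. The low counts therefore do not show that these RNAs were absent. Its exons overlap Ube3a and Gm38393, with up to 1803 bases shared.

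Among the H/ACA hosts, Snhg3 (ENSMUSG00000085241), which carries Snora73a and Snora73b, was called at GV and GV3h. At GV it ran from 0.721 through 1.33 to 2.45 CPM in controls and from 1.02 through 2.48 to 4.93 CPM in cKO oocytes. At GV3h it ran from 0.543 through 1.35 to 2.19 CPM and from 2.26 through 3.82 to 7.04 CPM. The GV ranges overlapped and the GV3h ranges did not. The fold change was 1.97 at GV (log2 0.98 ± 0.34, edgeR adjusted p = 0.0235) and 3.08 at GV3h (1.62 ± 0.33, 0.000235). The GV call was lost without V856 (edgeR adjusted p = 0.158), V888 (0.0721) or V889 (0.116), and the GV3h call held without each female and with female sums (log2 1.53, 0.0146). Of its 986 exonic bases, 705 overlap Rcc1, so reads of the 2 genes cannot be fully told apart.

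Snhg8 (ENSMUSG00000104960), host of Snora24, was called at MII. It ran from 0.14 through 0.633 to 1.57 CPM in controls and from 0.927 through 1.82 to 3.34 CPM in cKO oocytes (fold 2.56, log2 1.36 ± 0.40, edgeR adjusted p = 0.00802). The ranges overlapped, and without female V853 the difference was 0.93 (edgeR adjusted p = 0.197). At GV it had 14 reads in controls and 115 in cKO oocytes and did not pass the filter. Relative to all reads of those libraries the ratio was 3.5, with an exact 95% interval of 2 to 6.6 that covers counting error only. At GV3h the reads were 16 and 76, a ratio of 2.53 (1.46 to 4.64).

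Snhg11 (ENSMUSG00000044349), which the annotation classes as protein coding, varied widely between oocytes of 1 group. At GV it ran from 0 through 3.54 to 6.49 CPM in controls and from 0 through 0.248 to 23.2 CPM in cKO oocytes, 6 of which had no read. It was not called at GV (log2 0.19 ± 1.06) or at MII (0.18 ± 0.86), and it did not pass the filter at GV3h. At MII it ran from 0 through 0.237 to 5.19 CPM in controls and from 0 through 1.2 to 5.06 CPM in cKO oocytes.

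Snhg12 (ENSMUSG00000086290), which hosts both H/ACA and C/D box RNAs, was near the limit of detection in polyA libraries and passed no filter there. It had 3 reads in all GV controls and 74 in cKO oocytes, a ratio of 10.5 with an exact 95% counting interval of 3.46 to 52.1. Of the 74 reads, 73 came from female V888 (a mean of 0.917 CPM) and 1 from V857 (0.0223 CPM), while the control females averaged 0 and 0.108 CPM. The ratio is thus that of V888, and V857 lay within the range of the control females. At GV3h it had 8 and 50 reads, a ratio of 3.32 (1.56 to 8.12). The most any GV cKO oocyte reached was 2.37 CPM, and 4 of those 15 oocytes had no read.

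Snhg20 (ENSMUSG00000086859, chr11:117076008-117078955), the scaRNA host, had the largest fitted genotype differences of the hosts called. It passed the filter through the cKO oocytes alone at GV and GV3h, so this rank and its p-values only describe these libraries. In GV controls it ran from 0 through 0.144 to 0.323 CPM, and in cKO oocytes from 0.58 through 1.55 to 3.22 CPM. At GV3h the values were 0, 0.385 and 0.731 CPM in controls and 0.929, 2.43 and 4.87 CPM in cKO oocytes. The genotypes did not overlap at either stage. The fitted fold change was 11.7 at GV (log2 3.54 ± 0.53, edgeR adjusted p = 1.53e-05) and 7.03 at GV3h (2.81 ± 0.47, 2.93e-05). The GV value rests on 5 control reads in 7 libraries against 175 cKO reads, a ratio of 14.9 with an exact 95% counting interval of 6.26 to 46.5. Both cKO females were high at GV, V857 at 1.87 CPM and V888 at 1.29 CPM, against 0.156 and 0.0778 CPM in the control females. At GV3h it did not pass the filter in 3 of the 6 fits that left out 1 female. At MII it had 11 reads in controls and 18 in cKO oocytes, with a median of 0 in both, and did not pass the filter. With female sums the call held at GV3h (log2 2.92, edgeR adjusted p = 0.0087) and not at GV (3.71, 0.145).

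Counts summed per female called 0 hosts at polyA GV in edgeR (1 of 9 had an unadjusted p under 0.05, as had 3446 of 18004 genes), where 0.00555% of all genes were called higher, and Gas5, Snhg1, Snhg3 and Snhg20 at GV3h, where 20.9% were. At MII they called Gas5 and Snhg1, against 8.94% of all genes. At GV, where 2 females stood against 2, the values above therefore rest on oocytes.

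**Figure D3:**
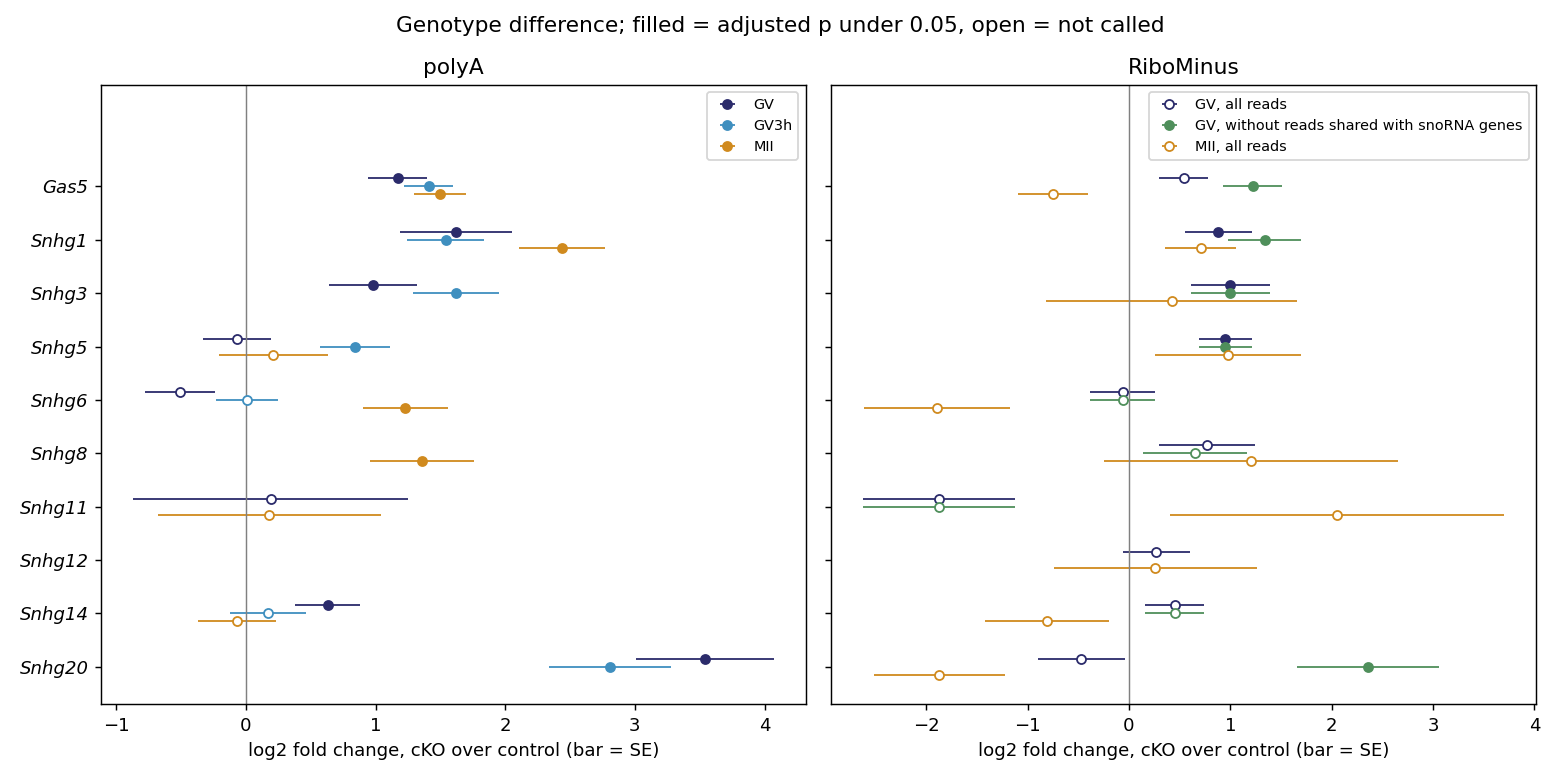
Difference between cKO and control oocytes for each host, as log2 fold change ± SE from edgeR on the axis, in polyA libraries at GV, GV3h and MII and in RiboMinus libraries at GV (all reads, and without reads shared with snoRNA genes) and MII. Filled points passed an adjusted p of 0.05; all filled points lie above 0.

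In RiboMinus libraries the host counts contained reads of the hosted RNAs. Over 174 same-strand and 130 opposite-strand pairs in which the exons of 1 gene lay wholly within those of another, each with at least 50 inner reads, the inner gene never had more RiboMinus reads than the outer one, as when a read is counted for every gene it overlaps on either strand. In the annotation all 10 small RNA genes inside Gas5 and all 8 inside Snhg1 touch exons of the host, and 2 of the 208 inside Snhg14 do. Of the 4118 bases of Gas5, 3760 are exonic, and all 2969 of Snhg1 are. In GV controls, reads shared with snoRNA genes made up 74.28% of Gas5, 47.15% of Snhg1, 80.74% of Snhg12, 94.24% of Snhg20 and 13% of Snhg8. In GV cKO oocytes the shares were 58.57%, 26.56%, 67.48%, 55.19% and 20.81%. In the polyA GV controls they were 0.5% for Gas5, 0.47% for Snhg1 and 0% for Snhg20. Gm22357 alone, shown above, had 1261 of the 2543 Gas5 reads in GV controls, and Gm26083 had 442 of the 469 Snhg20 reads.

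**Figure D4:**
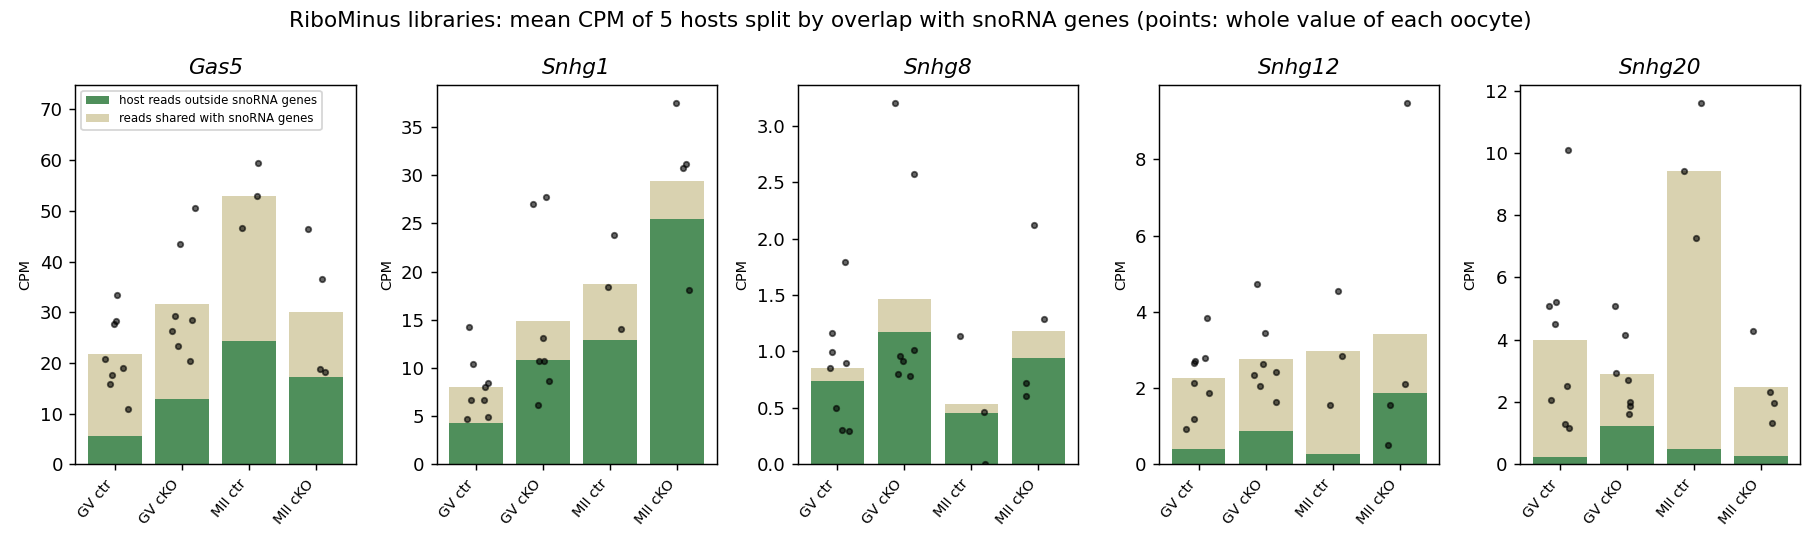
RiboMinus level of Gas5, Snhg1, Snhg8, Snhg12 and Snhg20 in CPM on the vertical axis, by stage and genotype. Bars start at 0 and stack the mean of reads outside snoRNA genes (green) and of reads shared with them (beige), and points are the whole value of each oocyte; shared reads fill most of the Snhg20 bar in controls (94.24% of reads at GV).

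With all reads, 3 of 10 hosts were called at RiboMinus GV, all higher in cKO oocytes, against 21.2% of all genes higher and 16.5% lower. These were Snhg1 (log2 0.88 ± 0.33, edgeR adjusted p = 0.0433), Snhg3 (1.00 ± 0.39, 0.0482) and Snhg5 (0.95 ± 0.26, 0.01). Snora73a, with 159 of its 205 bases in exons of Snhg3, had 200 reads in GV controls and 327 in cKO oocytes, where Snhg3 had 155 and 383. Only genes lying wholly in exons were removed below, so the share of Snora73a reads in the Snhg3 counts was not tested. Each of the 3 calls was lost without any 1 of the females V1131, V1132 or V1133, and with female sums edgeR called 0 hosts (0.00995% of all genes called higher), with 4 of 10 at an unadjusted p under 0.05 (4859 of 20094 genes). Snhg5, which shares no reads with snoRNA genes, ran from 2.21 through 3.62 to 5.01 CPM in controls and from 4.2 through 5.57 to 10.1 CPM in cKO oocytes. DESeq2 called 4 of 10 hosts, 3 higher and 1 lower, the latter being Snhg11. It called 6436 of 15347 genes, 3608 higher and 2828 lower, a share near that of the hosts. Snhg11 ran from 0 through 1.44 to 2.27 CPM in controls and from 0 through 0.268 to 0.797 CPM in cKO oocytes (log2 −1.87 ± 0.75, edgeR adjusted p = 0.0568).

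Without the shared reads, an alternative chosen after seeing the data, Gas5 and Snhg20 were called as well. Gas5 outside snoRNA genes ran from 3.05 through 5.55 to 8.27 CPM in GV controls and from 6.39 through 10.2 to 23.6 CPM in cKO oocytes. Its fold change was 2.32 (log2 1.22 ± 0.29, edgeR adjusted p = 0.00545), where all reads gave a log2 of 0.54 (0.0855). Snhg20 ran from 0 through 0.215 to 0.716 CPM and from 0.143 through 1.29 to 3.13 CPM, a fold change of 5.13 (log2 2.36 ± 0.70, edgeR adjusted p = 0.0156), where all reads gave −0.47 (0.406). The sign of the Snhg20 difference thus turned with the reads counted. Snhg1 moved from a log2 of 0.88 to 1.34 ± 0.36 (fold 2.53, edgeR adjusted p = 0.00918). The ranges of the genotypes overlapped in all 3, and none of them was called when these counts were summed per female. Fits that left out a female were not run on these counts. The Snhg20 value rests on 27 control reads, with 2 of the 8 control oocytes at 0.

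None of the hosted RNAs that could be tested was called between genotypes, and most could not be tested. Of 240 snoRNA and scaRNA genes inside the hosts, 32 lie outside Snhg14. At RiboMinus GV, 12 passed the filter and edgeR called 0, against 21.2% of all genes higher and 16.5% lower. The median log2 difference of the 12 was 0.21, with SEs from 0.28 to 0.53. Gm22357 ran from 5.46 through 9.87 to 18.7 CPM in controls and from 7 through 13.2 to 20.5 CPM in cKO oocytes (log2 0.21 ± 0.28, edgeR adjusted p = 0.582). Gm26083 ran from 0.887 through 3.4 to 10.1 CPM and from 0.575 through 1.35 to 4 CPM, and was the only one of the 12 with an unadjusted p under 0.05 (log2 −1.18 ± 0.53, edgeR adjusted p = 0.0849). In the same oocytes the reads of Snhg20 outside Gm26083 were higher in cKO oocytes, as given above. At MII, 11 passed and edgeR called 0, against 13.9% of all genes higher and 9.78% lower. Their median was −1.05, with SEs of up to 1.38, and again only Gm26083 had an unadjusted p under 0.05. Reads on a snoRNA gene can come from the mature RNA or from an unspliced host, and these were not told apart.

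At RiboMinus MII, edgeR called 0 of 10 hosts, against 13.9% of all genes higher and 9.78% lower. Of the 10 hosts, 2 had an unadjusted p under 0.05, Snhg6 and Snhg20, as had 6027 of all 16675 genes. DESeq2 called both of these lower, among 5059 genes called, and limma voom with the female as a random effect called Snhg20, among 2847. Snhg20 was at 7.26, 9.42 and 11.6 CPM in the 3 control oocytes and at 1.33, 1.98, 2.32 and 4.27 CPM in the 4 cKO oocytes (log2 −1.87 ± 0.65, edgeR adjusted p = 0.0517). The genotypes did not overlap, and 94.58% and 89.87% of these reads were shared with Gm26083. Snhg6 was at 6.23, 11.6 and 28.4 CPM in controls and at 0.595, 4.41, 5.33 and 5.62 CPM in cKO oocytes (−1.89 ± 0.72, 0.0734). Gas5, which was higher in cKO oocytes in every polyA comparison, was at 46.6, 52.9 and 59.4 CPM in controls and at 18.3, 18.9, 36.5 and 46.4 CPM in cKO oocytes here (log2 −0.75 ± 0.35, edgeR adjusted p = 0.143). The other hosts had values in both directions, none of them called, and the median of the 10 was 0.34. Without shared reads fewer than 10 hosts passed the filter and their median was 0.98, so the medians do not cover the same hosts. Snhg1 was at 14.1, 18.4 and 23.8 CPM in controls and ran from 18.1 to 37.5 CPM in cKO oocytes (log2 0.71 ± 0.35, edgeR adjusted p = 0.164). The log2 values of Snhg5 and Snhg11 were 0.98 ± 0.72 and 2.05 ± 1.65, and Snhg8 had means of 0.535 CPM in controls and 1.19 CPM in cKO oocytes. Those of Snhg3 and Snhg12 were 0.42 and 0.26, and that of Snhg14 was −0.81. Without female V1166 both Gas5 (−1.46, edgeR adjusted p = 0.00472) and Snhg20 (−2.46, 0.0468) were called lower in cKO oocytes. All controls came from female V1145.

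From GV to GV3h, the first 3 hours of culture, edgeR called 0 of 5 hosts in controls (0.519% of all genes called) and 0 of 7 in cKO oocytes (0.602%). Unadjusted p-values under 0.05 were found for Snhg6 in controls (1338 of 12716 genes) and for Snhg3, Snhg5 and Snhg20 in cKO oocytes (1731 of 14280). DESeq2 and limma voom called 0 in both. With no filter on low counts Snhg11 was called lower in controls (−2.91, edgeR adjusted p = 0.0485), among 98 of 29070 genes. The difference of this change between genotypes was called for 0 of 8 hosts (0.0959% of all genes), with an unadjusted p under 0.05 for Snhg5 alone (1419 of 15635 genes), and DESeq2 and limma voom called 0 there too. Some calls appeared when 1 female was left out, in fits that also called more of all genes. In controls these were Snhg6 without V856 (−0.69, edgeR adjusted p = 0.0442; 376 of 13160 genes called) and Snhg11 without V889 (−3.63, 0.00289; 207 of 13501). In cKO oocytes Snhg20 was called without V857 (1.00, edgeR adjusted p = 0.032), as were 1548 of 14018 genes. Gas5 (0.94, edgeR adjusted p = 0.0371) and Snhg6 (1.11, 0.0399) were called without V888, as were 934 of 14994 genes. Without V888 the difference between genotypes was called for Gas5 (0.98, edgeR adjusted p = 0.0497), Snhg6 (1.59, 0.0131) and Snhg11 (5.95, 0.0345), and for 604 of 15588 genes.

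From GV to MII, the polyA level of Snhg1 and Snhg6 fell in control oocytes, while the calls of Snhg5 and Gas5 depended on the females and settings used. In controls, 1 of 6 hosts was higher and 3 were lower, against 30.1% of all genes higher and 33.3% lower. Snhg6 fell by 3.23 on the log2 scale (edgeR adjusted p = 1.72e-08), from 11.8 CPM or more in every GV oocyte to 2.95 CPM or less in every MII egg. Snhg1 fell by 2.61 (3.95e-06), also without overlap, and Snhg5 by 1.26 (0.0275). The Snhg5 call was lost without V856 (−1.32, edgeR adjusted p = 0.0858), V889 (−1.17, 0.191) or V896 (−0.99, 0.0849) and with no filter (0.0548). Gas5 had a difference of 0.60 (edgeR adjusted p = 0.0444), a call that was lost without V853, V856 or V889. It was also lost with DESeq2 (adjusted p = 0.0505), with DESeq2 size factors in edgeR (0.0642), with library totals (0.22, 0.458), with no filter (0.0735) and with limma voom (0.187). Without V853, Snhg11 was called lower (−3.14, edgeR adjusted p = 0.0306). With female sums Snhg1 and Snhg6 were called, 2 of 8 hosts against 6681 of 15500 genes.

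In cKO oocytes 2 of 7 hosts were higher at MII and 5 lower, against 33.1% of all genes higher and 41.7% lower. Gas5 rose by 0.94 (edgeR adjusted p = 3.5e-06) and Snhg8 by 0.91 (0.00483). Snhg1 fell by 1.77 (3.42e-06), Snhg6 by 1.48 (2.2e-06), Snhg3 by 1.27 (0.000572), Snhg5 by 0.97 (0.000878) and Snhg14 by 0.57 (0.0257). Without female V888 the differences of Snhg1 and Snhg6 were −0.05 (edgeR adjusted p = 0.891) and −0.32 (0.379). Only Gas5 of the 7 kept its call without each female in turn. Snhg11 was called lower without V857 (−1.90, edgeR adjusted p = 0.0349) and higher without V888 (3.02, 0.0259), and Snhg20 was called lower without V897 (−2.74, 0.00233). With female sums, Gas5 and Snhg20 were called, 2 of 10 hosts against 6910 of 18353 genes.

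The test of the difference between genotypes called 2 of 9 hosts, where 14.7% of all genes were called. Snhg6 fell less in cKO oocytes than in controls, by 1.78 ± 0.40 on the log2 scale (edgeR adjusted p = 0.00154), and without female V889 the value was 1.34 (0.122). For Snhg20 the interaction was −3.85 ± 1.15 (edgeR adjusted p = 0.0181), resting on 11 control and 18 cKO reads at MII. That call was lost without V836, V853, V889 or V897. Without V888 the difference was called for Gas5 (1.11, edgeR adjusted p = 0.00638), Snhg1 (2.50, 0.000182) and Snhg11 (4.30, 0.0397), in a fit that called 4355 of 15427 genes. Counts summed per female called 0 hosts in this test with edgeR, where they called 13 of 18010 genes in all, and 2 of 9 hosts had an unadjusted p under 0.05 (2239 genes).

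**Figure D5:**
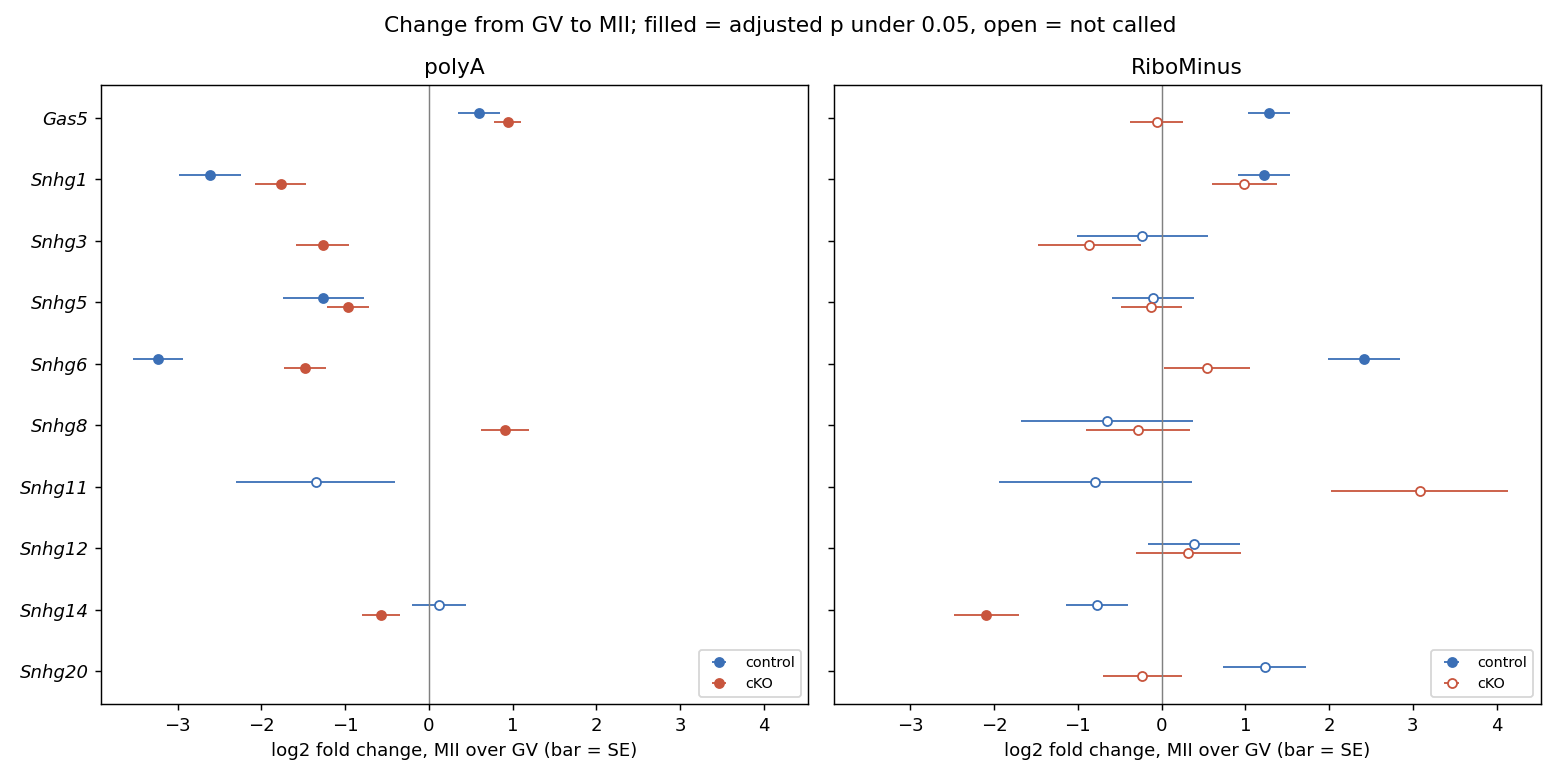
Change of each host from GV to MII as log2 fold change ± SE from edgeR, in control and cKO oocytes of the polyA and RiboMinus libraries. Filled points passed an adjusted p of 0.05; Snhg1 and Snhg6 lie below 0 in polyA controls (−2.61 and −3.23) and above 0 in RiboMinus controls (1.22 and 2.42).

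The RiboMinus libraries showed another course in controls. From GV to MII, 3 of 10 hosts were higher and 0 lower, against 15% of all genes higher and 15.8% lower. Snhg6 rose by 2.42 ± 0.43 (edgeR adjusted p = 0.000213), from 0.98, 2.95 and 4.29 CPM (lowest, median and highest of 8 GV oocytes) to 6.23, 11.6 and 28.4 CPM in the 3 eggs. Its value ranged from 1.62 to 2.83 when 1 GV female or 1 egg was left out, and the call held. Gas5 rose by 1.28 (0.000482), and by 2.13 (1.67e-05) without reads shared with snoRNA genes. Snhg1 rose by 1.22 (0.00525), a call lost without V1132, and by 1.59 (0.000959) without shared reads. Snhg20 was called higher without V1133 (2.39, edgeR adjusted p = 0.00307). The hosted Gm22357 rose by 0.88 (edgeR adjusted p = 0.0364), the only one of 14 hosted genes tested that was called. The 3 eggs came from female V1145, so stage and female cannot be told apart.

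The difference between library types was itself tested in controls. Snhg6 fell in polyA and rose in RiboMinus libraries, a difference of −5.48 ± 0.53 on the log2 scale (edgeR adjusted p = 2.29e-10), and for Snhg1 the difference was −3.67 ± 0.49 (1.84e-07). These were 2 of 9 hosts, where 49.6% of all genes were called. The library types came from different females, so the type and the female cannot be told apart.

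In cKO oocytes, 1 of 10 hosts changed from GV to MII in RiboMinus libraries, against 7.4% of all genes higher and 8.67% lower. Snhg14 fell by 2.09 ± 0.39 (edgeR adjusted p = 0.00461), from 9.27, 20.6 and 25.1 CPM (lowest, median and highest) to 2.14, 3.92, 4.52 and 6.93 CPM, without overlap. The call was lost without V1131 (−2.11, edgeR adjusted p = 0.0625), and Snhg11 was called higher without V1166 (4.04, 0.0285). The change differed by genotype for Gas5 among the 10 hosts, where 14.8% of all genes were called: it rose by 1.28 in controls and its change in cKO oocytes was −0.06, a difference of −1.36 ± 0.44 (edgeR adjusted p = 0.0364). This value ranged from −2.04 to −0.90 when each female but V1145, or each MII oocyte, was left out, and lost its call in 8 of 13 such fits. V1145 gave all MII controls and could not be left out.

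At GV, the library types of control oocytes differed in 5 of 9 hosts, where 30.4% of all genes were higher in polyA and 30.8% lower. Snhg6 was higher in polyA by 2.71 on the log2 scale (edgeR adjusted p = 4.44e-09). Snhg20 (−5.00, 8.18e-07), Snhg12 (−4.84, 1.39e-06), Snhg14 (−1.23, 0.000333) and Gas5 (−0.66, 0.00672) were lower. The Gas5 call was lost without V1133 (−0.41, edgeR adjusted p = 0.125). Its direction turned without the shared reads, to 1.30 (1.57e-05), and Snhg12 and Snhg20 then did not pass the filter. Snhg1 went from 0.28 (0.374) to 1.18 (0.000417). Without the shared reads 3 of 7 hosts were thus higher in polyA and 1 lower, with a median of 1.15 over the 7. On all reads the median of the 9 was 0.14. The medians do not cover the same hosts, since Snhg12 and Snhg20, at −4.84 and −5.00 on all reads, are missing from the 7. The genotype difference at GV depended on library type for Snhg20 among 10 hosts (4.05 ± 0.70, edgeR adjusted p = 0.00133), where 1.04% of all genes were called. Without the shared reads that difference was 1.24 (0.638), and without V889 it was 3.57 (0.0549).

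In the order of mean levels, neighbouring groups overlapped for most hosts. The ranges of neighbouring groups were apart only between MII controls and the next group for Snhg1 in polyA, and between MII cKO oocytes and the next group for Snhg6 and Snhg14 in RiboMinus. For Gas5 in polyA the order ran from GV3h controls (13 CPM on average) through GV controls (13.2), MII controls (20.2), GV cKO (30.2) and GV3h cKO (34.8) to MII cKO oocytes (58.9). For Snhg1 it ran from MII controls (1.52) through GV3h controls (8.17), MII cKO (8.64), GV controls (9.34) and GV3h cKO (23.9) to GV cKO oocytes (29).

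The 4 hosts with a mean of at least 5 CPM were compared across the 64 polyA libraries with 10582 genes at that level. The points share groups, females and library depth, so the correlations of log2(CPM + 1) describe these libraries only. Gas5 was most like 2410006H16Rik (Pearson r = 0.925) and Gm37372 (0.894). Snhg1 was most like Dppa4 (0.904) and Zfas1 (0.899), the latter among the further noncoding snoRNA hosts listed below. Whether other matches named here host snoRNAs was not examined. Snhg6 was most like Sec61g (0.914) and Vkorc1 (0.913), and Snhg14 reached no more than 0.475 with Cacna1d and 0.432 with Usp12. Among the hosts themselves, Snhg1 and Snhg6 had an r of 0.737, and Gas5 and Snhg1 one of 0.355. The other pairs ran from −0.174 (Gas5 and Snhg6) to 0.0683 (Snhg1 and Snhg14).

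Other genes around the hosts were read from lists, in fits on oocytes alone. For them no fit summed counts per female or left out a female. Their counts stand against the shares of all genes called in the same fits, 22% higher and 18.5% lower for GV. The shares were 29.4% and 26.1% for GV3h and 19% and 18.6% for MII. In RiboMinus libraries they were 21.2% and 16.5% for GV and 13.9% and 9.78% for MII. Of 7 further noncoding snoRNA hosts in the files, 3 of 5 tested were higher in cKO oocytes at polyA GV (median log2 1.08), 3 of 4 at GV3h (1.24) and 1 of 2 at MII, with none lower. At GV3h these were Zfas1 (1.84, edgeR adjusted p = 3.32e-05), Snhg10 (1.55, 0.000103) and Snhg18 (0.93, 1.31e-05). Protein-coding snoRNA hosts, many of them ribosomal protein and translation genes, went both ways: 10 of 35 were higher and 3 lower at GV (median 0.16), 16 and 4 of 35 at GV3h (0.27) and 10 and 6 of 28 at MII (0.14). At RiboMinus GV, 2 of 5 further noncoding hosts were higher and 0 lower (median 0.67). Of 37 protein-coding hosts, 7 were higher and 3 lower there (0.05). The RiboMinus MII medians were negative. They were −0.34 for the noncoding hosts (1 of 5 higher, 0 lower) and −0.25 for the protein-coding hosts (2 of 36 higher, 6 lower). Tomm20, a receptor of the mitochondrial import machinery, rose by 3.41 (3.55e-07) at GV3h, and the ribosomal protein genes Rpl12 and Rps3 by 1.45 (0.00375) and 1.21 (1.26e-08).

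Of 17 snoRNP proteins and assembly factors tested in polyA libraries, 4 were higher and 2 lower at GV, 10 and 3 at GV3h (median 0.53) and 3 and 3 at MII. RiboMinus libraries had 5 of 18 higher and 3 lower at GV (median 0.22), and 2 and 4 at MII (−0.28). At GV3h the assembly factors Znhit3 (2.89, edgeR adjusted p = 1.25e-06), Naf1 (1.27, 5.75e-06) and Nufip1 (1.23, 5.6e-06) rose, and Dkc1, the pseudouridine synthase of H/ACA particles and itself a snoRNA host, fell by 1.18 (6.28e-06). Of 10 factors of nonsense-mediated decay, 3 were higher and 3 lower at polyA GV, the same numbers at GV3h, and 2 and 2 at MII. For RiboMinus the numbers were 2 and 1 at GV (median −0.08), and 5 and 1 at MII (0.49). At GV3h Smg5, whose protein binds phosphorylated UPF1, rose by 1.75 (edgeR adjusted p = 2.34e-07). The helicase gene Upf1 fell by 0.95 (1.08e-06), and Smg6, which encodes an endonuclease, fell by 0.61 (0.000493). Of the 10 oocyte markers, 0 were higher in cKO oocytes and 2 lower at polyA GV. At GV3h 3 were higher and 2 lower, and at MII 6 were higher (median 0.60) and 0 lower. In RiboMinus libraries 4 were higher and 1 lower at GV, and 2 and 2 at MII. Of the cumulus and granulosa markers, 2 of 4 tested were higher in cKO oocytes at polyA GV, with a median of 0.16 over the 4. These were Kitl (0.79, edgeR adjusted p = 0.0158) and Fshr (3.27, 0.00818), named after their values were seen. Cyp19a1, which encodes aromatase, was at −0.75 there (0.0917). It was lower in cKO oocytes at GV3h (−0.77, edgeR adjusted p = 0.00992), where it was 1 of 2 tested, and at RiboMinus GV (−1.22, 0.00185), where it was 1 of 5. No marker of this list was called higher at GV3h or at RiboMinus GV, and at MII none of 2 in polyA or of 4 in RiboMinus libraries was called. The part of both sets of markers in the host values was not tested.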

How the data were processed

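The deposited files hold raw counts per Ensembl gene, 1 file per oocyte. Per the submitters' processing notes the authors used cutadapt 2.5, FastQC 0.11.8, STAR 2.7.2a, SAMtools 1.9, HTSeq 0.9.1, R 3.5.1, DESeq2 1.24.0 and mm10; strand and overlap settings are not given in the sources used here. The 5 summary lines of each file were left out (reads outside genes: 5.85 to 14.17% of polyA and 8.34 to 12.4% of RiboMinus reads; ambiguous: 2.21 to 3.19% and 2.07 to 2.3%). The files hold 0 spike-in lines, so every change is relative within a library. The rRNA files were not used. Groups came from the labels; positions and exons came from GENCODE M21.

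Each comparison was fitted on all genes of the groups compared with edgeR 4.0.16 (filterByExpr, TMM, glmQLFit, glmQLFTest, two-sided, R 4.3.3), and called at a Benjamini-Hochberg adjusted p under 0.05. Oocytes were the replicates. The alternatives were DESeq2 1.42.0, 2 other scalings, no filter, female sums, voom weights in limma 3.58.1 with females as random effects, and leaving out each female (and each RiboMinus MII oocyte). Female V1145, the only one of the RiboMinus MII controls, could not be left out. Counts without reads of snoRNA genes lying wholly in host exons were an alternative added after seeing the data. The fits were tested on simulated data. Intervals cover counting error only. The hosts and gene lists were chosen with earlier results of these data known. Named were the 10 hosts, Exosc10, the 2 genes most alike to each host of at least 5 CPM, called snoRNA genes inside hosts, and at most 4 called genes a list by their change at GV3h. Gm22357, Gm26083 and the other hosted RNAs shown were picked by their reads. Summaries and figures used Python 3.11.15. A gene that the rule for lists names is not reported here.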

Additional observations from a re-analysis of the deposited data

Results flagged for a closer look

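In 60 sets of 4 to 10 oocytes (1 host in 1 group), the highest or lowest oocyte stood apart from the rest in 5, and chance flags about 1 in 20. Snhg5 in MII controls (polyA) reached 6.31 CPM in oocyte V853_1, where the next was 3.23 CPM. Snhg11 in the same group reached 5.19 CPM in V853_4, next 2.1 CPM, and Snhg12 reached 0.776 CPM in V896_2, where the other 7 oocytes had no read. Snhg14 in GV3h controls was lowest in V982_1 at 3.35 CPM, next 5.11 CPM. Snhg20 in GV controls (RiboMinus) was highest in V1133_1 at 10.1 CPM, next 5.21 CPM.

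The effect differed between groups by an edgeR interaction test in 6 cases. Of all genes, 14.7% were called for GV to MII by genotype in polyA and 14.8% in RiboMinus libraries. The shares were 49.6% for control GV to MII by library type and 1.04% for the GV genotype difference by library type. Calls lost when a female or oocyte was left out are given above. The GV to MII change of polyA Snhg6 differed between genotypes by 1.78 on the log2 scale (adjusted p = 0.00154), that of polyA Snhg20 by −3.85 (0.0181) and that of RiboMinus Gas5 by −1.36 (0.0364). In controls the GV to MII change differed between library types by −3.67 for Snhg1 (1.84e-07) and −5.48 for Snhg6 (2.29e-10). The GV genotype difference of Snhg20 differed between library types by 4.05 (0.00133), and by 1.24 (0.638) without reads shared with snoRNA genes.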

How the results depend on the processing

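Values here are the numbers of hosts called. Of 43 calls of a host in a comparison, 14 were made in every fit that left out 1 female or oocyte. Hosts that did not pass the filter in some of these fits are not among the 14. With counts summed per female, where the RiboMinus MII controls are 1 sample assumed to vary like the others, 18 were made. In all 17 comparisons the number stayed within 1.5 times under DESeq2 size factors and under library totals. No paired analysis was possible because genotype and stage do not vary within a female, and oocyte numbers of different females pair nothing. For values that moved further, the cause was not tested; with female sums, fewer samples enter and a smaller share of all genes was called.

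For the genotype difference, polyA GV went from 5 to 0 with female sums (also without shared reads) and to 1 with limma voom. PolyA MII went from 4 to 2 with female sums, also without shared reads. RiboMinus GV went from 3 to 0 with female sums and with voom, to 5 without shared reads and to 0 without them in female sums. Female sums called 0.00555% of all genes higher at polyA GV and 0.00995% at RiboMinus GV, so a 0 there says little of the hosts. The numbers in this paragraph for other settings stand without the share of all genes called. RiboMinus MII went from 0 to 2 with DESeq2 and to 1 with no filter, with voom, and without shared reads with no filter.

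For stage, polyA control GV to GV3h went from 0 to 1 with no filter. PolyA control GV to MII went from 4 to 2 with no filter and with female sums, each also without shared reads. PolyA cKO GV to MII went from 7 to 2 with female sums, to 3 with voom and to 1 with female sums without shared reads. RiboMinus cKO GV to MII went from 1 to 2 with DESeq2 and to 0 with female sums, with or without shared reads (of all genes, 2770 were called, 4146 with DESeq2 and 0 with female sums).

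For interactions, polyA GV to MII by genotype went from 2 to 0 with female sums (with or without shared reads) and to 1 with voom. RiboMinus GV to MII by genotype went from 1 to 2 with DESeq2 and to 0 with no filter, voom and female sums (with or without shared reads). The GV genotype difference by library type went from 1 to 0 with female sums, voom and each form without shared reads; of all genes 163 were called, 0 with female sums and 2 with voom, so a 0 there says nothing of the hosts. The sign of Gas5 between library types of GV controls reversed from −0.66 to 1.30 without shared reads, to 1.31 with those counts in female sums and to 1.27 with those counts and no filter.

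Leaving out females or oocytes gave these ranges of hosts called. The genotype difference gave 2 to 3 at polyA GV, 3 to 5 at GV3h, 2 to 4 at polyA MII, 0 to 3 at RiboMinus GV and 0 to 2 at RiboMinus MII. GV to GV3h gave 0 to 1 in controls, 0 to 2 in cKO oocytes and 0 to 3 by genotype. PolyA GV to MII gave 2 to 4 in controls, 4 to 7 in cKO oocytes and 0 to 4 by genotype. RiboMinus GV to MII gave 2 to 4 in controls, 0 to 2 in cKO oocytes and 0 to 2 by genotype. Library type gave 2 to 6 at GV in controls, 2 to 3 for GV to MII in controls and 0 to 2 for the GV genotype difference.

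Depth limits Snhg8, Snhg12 and Snhg20 in polyA libraries, where a control group held 3 to 33 reads. It also limits Snhg3 at MII, with 25 control reads, and Snhg11 at GV3h, with 15.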
